A study of Rattus norvegicus with 142 samples.

Results

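The transcripts described here are 50 probe sets of a rat expression array that were stronger in hippocampus than in cortex of normoxic pups and moved little over the week of sampling. They were chosen from 24249 probe sets, of which 66 are array controls and were left out. In the normoxic control libraries the mean of the 5 time means had to be higher in hippocampus than in cortex by at least 1 on the log2 scale, which is a 2-fold difference. The hippocampal mean had to be at least 7, and 168 h minus 1 h had to lie between -0.8 and 0.8 in both tissues. The tissue difference was met by 274 probe sets and the level as well by 83, and 33 of these 83 changed too much with time in 1 or both tissues. These normoxic values chose the probe sets and are therefore given as a description, while the libraries of the hypoxic pups, which the rule did not use, are tested.

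The arrays were made from Long-Evans rat pups treated on postnatal day 10 (P10). In the HS+NBQX group, pups breathed 5% O2 for 15 min, a hypoxic session that provokes seizures (HS). A course of 4 intraperitoneal injections of NBQX over 48 h followed, begun before the first sampling time. The HS group went through the same hypoxic session and received vehicle injections, and the noHS group spent the session in normal air and received vehicle injections too. Pups were killed 1, 6, 12, 48 or 168 h after the session, and the whole hippocampus and the whole cortex were profiled apart. Those killed at 1, 6 or 12 h had received only part of the course of injections. Hippocampus gave 23 HS+NBQX, 23 HS and 24 noHS libraries, cortex gave 24 HS+NBQX, 23 HS and 25 noHS libraries, and each group had 4 to 6 libraries at each time. The 142 libraries came from 74 pups of 11 litters, and 68 pups gave both tissues.

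The hippocampus is a folded strip of older cortex made up of the dentate gyrus, with its densely packed granule cells, and of the pyramidal cell fields of Ammon's horn. It differs from the layered neocortex in its cell types, in the transcription factors that set up its fields, and in its readiness to generate seizures. In the rat the second week after birth is a time of granule cell production, synapse formation and glial maturation, so that many transcripts change within a week of normal growth. NBQX blocks AMPA receptors, the glutamate receptors that carry most fast excitation, and kainate receptors.

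The files and tables used here do not pair the array's probe sets with genes. Members are therefore given by the identifier of the probe set, at most 2 higher and 2 lower ones in each comparison, no role is given for any of them, and no sequence is shown. For the same reason neither tissue could be checked against its marker genes. Values are log2 of a linear array intensity, so that 1 unit is a 2-fold difference, and the median probe set of a library lay between 6.00 and 6.32 on this scale. The design leaves several factors entangled. Nearly all hippocampal libraries lay on one array plate and nearly all cortical libraries on the other, with the exception of 13 libraries of 168 h that were swapped over, all from 1 litter. Each plate column held 1 treatment and each litter was killed at 1 time, so that time and litter cannot be told apart. In whole tissue, fewer cells of a type and less RNA in each cell cannot be told apart either. Because the samples of 1 group came from separate pups, the errors given here hold the spread between pups of shared litters.

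In the noHS libraries used to choose them, the 50 probe sets had hippocampal means of 7.01 to 11.22 with a median of 8.43, and cortical means of 4.47 to 10.09 with a median of 7.12. Their hippocampus minus cortex difference was 1.01 to 3.15 with a median of 1.36, and only 4 of the 50 reached 2. The hippocampal change between 1 h and 168 h ran from -0.79 to 0.65, and the cortical change from -0.73 to 0.75. The members nearest to each limit were close to the probe sets just left out. The smallest tissue differences kept were 1.01 and 1.03, and the largest left out were 0.988 and 0.995. The lowest hippocampal levels kept were 7.01 and 7.09, and the highest left out were 6.94 and 6.98. For the change with time, 0.772 and 0.791 were the largest sizes kept in hippocampus against 0.832 and 0.837 left out, and 0.734 and 0.745 were the largest sizes kept in cortex against 0.801 and 0.831 left out.

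In pups that had gone through hypoxia the 50 probe sets kept their hippocampal enrichment. In HS+NBQX pups all 50 were higher in hippocampus than in cortex at an adjusted p under 0.05 (limma, Benjamini-Hochberg over 24249 probe sets), with differences of 0.75 to 3.09 and a median of 1.39, against 27.8% of all probe sets called higher in hippocampus and a median of -0.02 over all probe sets. In HS pups all 50 were higher as well, with differences of 0.74 to 3.08 and a median of 1.36, against 21.7% of all probe sets and a median of -0.06. Among the 9665 probe sets with a noHS hippocampal mean of at least 7, the share called higher in hippocampus was 45.6% in HS+NBQX and 38.5% in HS. A difference of 1 or more, the limit that the rule had set in noHS, was reached by 49 of the 50 in HS+NBQX and by 45 of the 50 in HS. The median level of the set separated the tissues in every library. The median of the 50 was 8.18 to 8.67 in HS+NBQX hippocampus against 6.92 to 7.26 in HS+NBQX cortex, and 8.32 to 8.72 in HS hippocampus against 6.91 to 7.33 in HS cortex. In noHS, whose libraries chose the set, it was 8.25 to 8.65 in hippocampus and 6.81 to 7.23 in cortex.

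**Figure D1:**
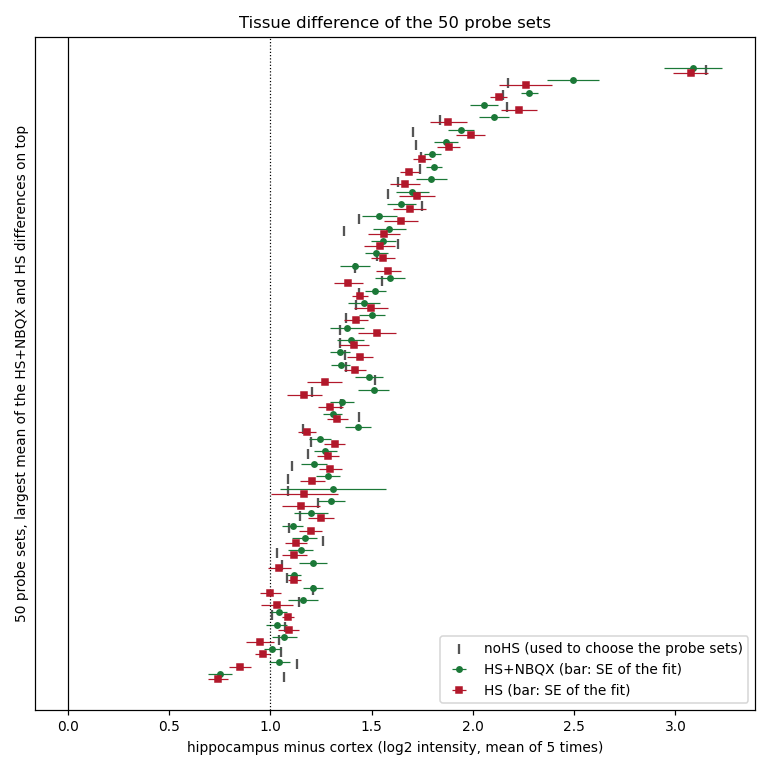
Hippocampus minus cortex difference of each of the 50 probe sets on the log2 scale, for HS+NBQX (circles) and HS (squares) with the SE of the fit, and for noHS as ticks. All differences in HS+NBQX and HS lie above 0, between 0.74 and 3.09, and the dotted line marks the difference of 1 that the rule asked of noHS.

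**Figure D2:**
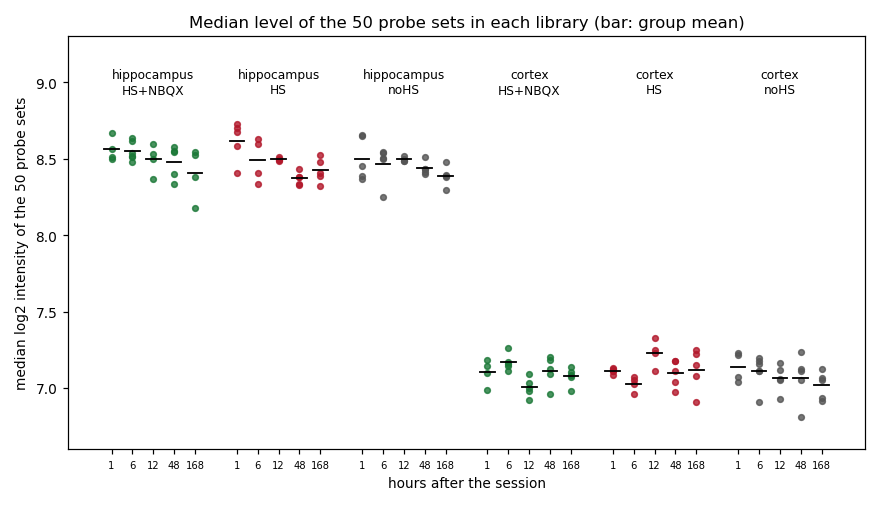
Median log2 intensity of the 50 probe sets in each of the 142 libraries, by tissue, treatment and hours after the session, with a bar at each group mean. Every hippocampal library lies above every cortical library, the lowest hippocampal value being 8.18 and the highest cortical value 7.33.

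The separation could also be read library by library and pup by pup. In HS+NBQX, 41 of the 50 probe sets had every one of the 23 hippocampal libraries above every one of the 24 cortical libraries, which 0.544% of all probe sets did. In HS, 39 of the 50 did so over 23 libraries of each tissue, against 0.474% of all probe sets. Within pups that gave both tissues, hippocampus exceeded cortex in 1097 of 1100 pairs of values in the 22 HS+NBQX pups and in 1147 of 1150 pairs in the 23 HS pups. The median over the 50 probe sets was positive in every pup, from 1.00 to 1.62 in HS+NBQX pups and from 0.97 to 1.59 in HS pups.

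At 168 h both plates held libraries of both tissues, so that the tissue difference could be read within a plate, between pups of different litters. In HS+NBQX it had a median of 1.31 on the plate that otherwise held hippocampus (3 hippocampal and 2 cortical libraries) and of 0.99 on the other plate (1 and 3 libraries), and it was above 0 for 50 and 49 of the 50 probe sets. In HS these medians were 1.31 (2 and 3 libraries) and 1.23 (3 and 2 libraries), with all 50 above 0 on both plates. With the plate as a fixed factor in the fit, 49 of the 50 in HS+NBQX and all 50 in HS were called higher in hippocampus, with medians of 1.31 in both. Over all 24249 probe sets, 1388 were then called higher in HS+NBQX and 1468 in HS.

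By the fitted values, the largest tissue difference was that of 1388539_AT. In HS+NBQX libraries its lowest, median and highest values in hippocampus were 6.70, 7.43 and 8.05, and those in cortex 1.71, 4.40 and 5.21. In HS hippocampus 1388539_AT had 6.78, 7.39 and 8.18, and in HS cortex 3.41, 4.28 and 5.32. The tissues did not overlap in either treatment, and the cortical values lay below the median probe set of any library, where intensities are low. Its fitted difference was 3.09 ± 0.14 in HS+NBQX (SE, adjusted p = 2.73e-23, limma) and 3.08 ± 0.09 in HS (SE, adjusted p = 8.58e-31, limma). With 32 added to the intensities before taking log2, which damps low values, the difference of 1388539_AT was the smallest of its alternatives, 1.90 in HS+NBQX and 1.96 in HS, and it was still called. It was then no longer the largest in HS+NBQX, where 1382626_AT had 2.09, and in HS 1382626_AT was close to it with 1.95.

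The second largest fitted difference was that of 1375026_AT, whose median cortical level was also below that of the median probe set of any library. Its lowest, median and highest values were 6.53, 7.56 and 8.59 in HS+NBQX hippocampus and 4.21, 5.06 and 5.97 in HS+NBQX cortex. HS libraries had 6.61, 7.54 and 8.67 in hippocampus, and in cortex 4.40, 5.44 and 6.15, so that the tissues again did not overlap. The difference was 2.49 ± 0.13 in HS+NBQX (SE, adjusted p = 2.39e-21, limma) and 2.26 ± 0.13 in HS (SE, adjusted p = 3.03e-19, limma). With 32 added it was 1.75 in HS+NBQX and 1.66 in HS, called in both but only the fifth largest.

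NBQX left no change of the tissue difference, as a mean over the 5 times, that passed the test. Set against HS, the hippocampus minus cortex difference in HS+NBQX was larger for 28 of the 50 probe sets (20 with a common median), with a median shift of 0.02 and a range of -0.17 to 0.34, and the median over all probe sets was 0.04. None of the 50 passed an adjusted p of 0.05 in either direction (limma, interaction of tissue and treatment), against 0.099% of all probe sets called larger and 0.0289% called smaller. At an unadjusted p under 0.05, 7 of the 50 were larger and 0 smaller, against 9.23% and 2.65% of all probe sets. With a common median these were 3 larger and 2 smaller, with quantile normalization 5 and 2, and without the swapped libraries 1 and 0. The adjusted counts of 0 held in all 8 alternatives tried.

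The median enrichment of the set was lower at 168 h than at 1 h in both treatments and in noHS. In the named members with the largest narrowing the cortical level rose. In HS+NBQX the median tissue difference of the 50 was 1.51, 1.40, 1.48, 1.37 and 1.18 at 1, 6, 12, 48 and 168 h. In HS it was 1.46, 1.47, 1.32, 1.30 and 1.25 at the same times. In noHS, whose libraries chose the set, it was 1.37, 1.35, 1.34, 1.34 and 1.28. The number of probe sets with a difference of at least 1 was 47, 46, 48, 45 and 35 in HS+NBQX and 45, 46, 44, 42 and 35 in HS. In noHS this number was 45, 45, 45, 44 and 39. The difference stayed above 0 for all 50 at every time, the lowest being 0.49 in HS+NBQX and 0.37 in HS, both at 168 h.

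The change of the tissue difference between 168 h and 1 h was tested as an interaction of tissue and time, a test added after the values by time had been seen. In HS+NBQX the difference at 168 h was smaller for 9 of the 50 and larger for 3 (limma, adjusted p under 0.05), against 3.62% and 2.56% of all probe sets and, among those with a noHS hippocampal mean of at least 7, 7.92% and 5.17%. The median change of the 50 was -0.21, against -0.01 over all probe sets. In HS it was smaller for 9 and larger for 1, against 6.57% and 5.48% of all probe sets and 14.7% and 7.78% of those with the higher level. Here the median change was -0.20, against 0.07 over all probe sets. The fits were repeated without the libraries that lay on the plate of the other tissue, all of them from 1 litter at 168 h. Then 2 of the 50 were smaller and 2 larger in HS+NBQX, and 3 were smaller and 2 larger in HS. Over all 24249 probe sets, 103 were then smaller and 90 larger in HS+NBQX, and 73 smaller and 224 larger in HS. The median change of the 50 was then -0.14 in HS+NBQX, against -0.03 over all probe sets, and -0.12 in HS, against 0.04. With all libraries, 877 of all probe sets had been smaller in HS+NBQX and 1593 in HS, so the counts fell over the whole array too. Whether the lower counts of members came from those libraries themselves or from having fewer libraries was not tested. The HS count of 9 in 50 with all libraries lay near the share at the higher level. Leaving out replicate 4 of HS+NBQX hippocampus at 168 h, or replicate 3 or 4 of HS hippocampus at 168 h, left 5 smaller. Over all 24249 probe sets these fits left 449 smaller in HS+NBQX, and 1136 and 1121 in HS, so these counts too fell over the whole array.

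**Figure D3:**
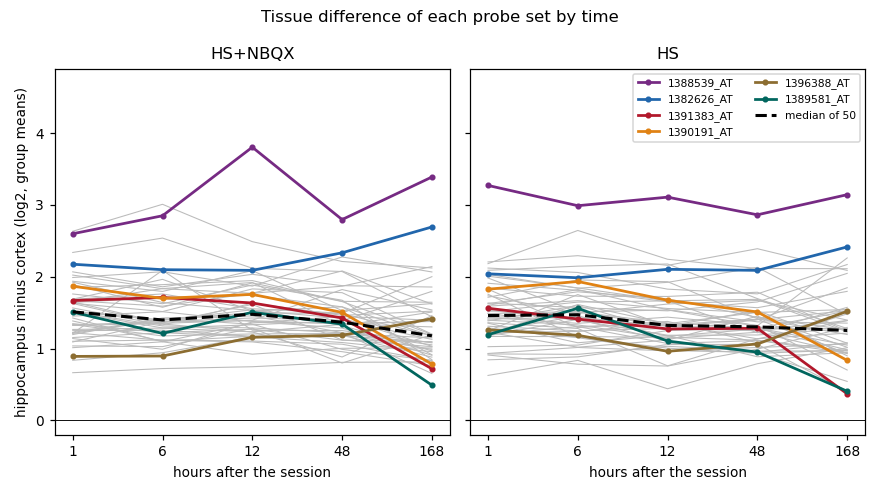
Hippocampus minus cortex difference of group means (log2) for each of the 50 probe sets at 1, 6, 12, 48 and 168 h in HS+NBQX and HS, with 6 probe sets coloured and the median of the 50 dashed. The median is 1.18 in HS+NBQX and 1.25 in HS at 168 h, and 1390191_AT, 1391383_AT and 1389581_AT fall below 1 there in both treatments, while 1382626_AT stays above 2.

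1391383_AT showed this most plainly in HS. In HS cortex it read 8.56, 8.63, 8.75, 8.89 and 8.95 at 168 h, against 7.73, 7.68, 7.73, 7.43 and 7.55 at 1 h. In HS hippocampus it read 9.36, 9.24, 8.84, 9.07 and 9.13 at 168 h, against 9.15, 9.07, 9.23, 9.18 and 9.31 at 1 h. Cortical libraries of the 2 times did not overlap, and hippocampal libraries did. The cortical value of 1391383_AT rose by 1.13 ± 0.11 in HS (SE, adjusted p = 1.13e-08, limma), and its tissue difference shrank, with a change of -1.19 ± 0.13 (SE, adjusted p = 6.69e-08, limma).

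In HS+NBQX cortex 1391383_AT read 8.41, 8.20, 8.18, 8.97 and 8.90 at 168 h, against 7.60, 7.21, 7.89 and 7.69 at 1 h. All of its 168 h libraries were again above those of 1 h, and the rise was 0.94 ± 0.17 (SE, adjusted p = 1.58e-04, limma). The 2 highest, 8.97 and 8.90, were the swapped libraries of the 1 litter. Without that litter the rise of 1391383_AT lay within 0.8 in HS+NBQX cortex and was 0.968 in HS cortex. The noHS cortex, which was held to a limit of 0.8 by the rule, had a change of 0.75 for this probe set.

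1390191_AT behaved in like manner in both treatments. Its cortical values in HS+NBQX were 7.81, 8.00, 8.10, 8.37 and 7.94 at 168 h, against 7.24, 7.29, 7.45 and 7.14 at 1 h. HS cortex had 8.09, 7.64, 8.14, 8.32 and 8.09 at 168 h, against 7.27, 7.27, 7.48, 7.30 and 7.46 at 1 h. The 2 times did not overlap in either treatment. Its tissue difference changed by -1.08 ± 0.19 in HS+NBQX (SE, adjusted p = 3.88e-04, limma) and by -0.99 ± 0.17 in HS (SE, adjusted p = 2.09e-04, limma), and without the libraries on the other tissue's plate the HS change was -0.74 (adjusted p = 0.107, limma).

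For 1389581_AT the cortical values in HS+NBQX were 7.85, 7.71, 7.55, 8.32 and 8.02 at 168 h, against 6.95, 6.98, 6.92 and 6.85 at 1 h. These did not overlap, and the rise of 0.97 ± 0.19 (SE, adjusted p = 3.48e-04, limma) was the largest in that group. The 2 highest at 168 h, 8.32 and 8.02, were the swapped libraries of the 1 litter. Without them the rise of 1389581_AT lay within 0.8. Its tissue difference changed by -1.02 ± 0.23 in HS+NBQX (SE, adjusted p = 0.00500, limma), and by -0.74 without the libraries on the other tissue's plate (adjusted p = 0.136, limma).

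A few members had a larger tissue difference at 168 h. 1382626_AT fell more in cortex than in hippocampus. In HS+NBQX cortex it read 6.85, 7.10, 6.91, 6.67 and 6.95 at 168 h, against 7.61, 7.92, 7.64 and 7.98 at 1 h, and in HS+NBQX hippocampus 9.72, 9.69, 9.59 and 9.35 at 168 h, against 9.93, 10.12, 9.88 and 9.92 at 1 h. In each tissue all libraries of 168 h lay below those of 1 h. The tissue difference of 1382626_AT grew by 0.52 ± 0.14 in HS+NBQX (SE, adjusted p = 0.0151, limma) and by 0.37 ± 0.13 in HS (SE, adjusted p = 0.0497, limma). The HS+NBQX call was lost with the plate as a fixed factor (0.54, adjusted p = 0.0664, limma). The HS call of 1382626_AT was lost in 4 of 8 alternatives, with adjusted p of 0.0175 to 0.139 over them, and in 35 of 46 fits that left out 1 library. The other probe set named as growing, 1396388_AT in HS+NBQX, had a change of 0.53 ± 0.17 (SE, adjusted p = 0.0481, limma) that was called in 5 of 8 alternatives (adjusted p of 0.0283 to 0.385) and lost in 29 of 47 fits that left out 1 library.

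Within each tissue the stability asked of noHS held for most of the set after hypoxia. The change between 168 h and 1 h stayed within 0.8 for all 50 in hippocampus, in HS+NBQX and in HS alike, and for 46 of 50 in HS+NBQX cortex and 47 of 50 in HS cortex. Among probe sets with a noHS hippocampal mean of at least 7, 95.6% stayed within it in HS+NBQX hippocampus, 95.9% in HS hippocampus, 93.2% in HS+NBQX cortex and 93.7% in HS cortex. Without the swapped libraries of the 1 litter 49 of 50 did so in HS+NBQX hippocampus, with 1387531_AT at -0.81. In HS hippocampus 49 of 50 did so as well, with 1387288_AT at -1.07. In HS+NBQX cortex the count then rose from 46 to 49 of 50, leaving only 1382626_AT outside, at -0.84. In HS cortex it stayed at 47, with 1382626_AT, 1381487_AT and 1391383_AT outside. There 1387288_AT had come within the limit and 1381487_AT had left it. Being within this limit did not mean that no change passed the test. In HS+NBQX hippocampus 20 of the 50 were lower and 7 higher at 168 h than at 1 h (limma, adjusted p under 0.05), against 13.3% and 9.02% of all probe sets, with a median change of -0.28 against -0.06 over all probe sets. In HS hippocampus 18 were lower and 7 higher, against 12.8% and 12.1%, with a median of -0.20 against 0.04. The median change of the 50 in noHS hippocampus, which the rule held to the limit, was -0.22. Among probe sets with a noHS hippocampal mean of at least 7, 22.3% were lower and 16.1% higher in HS+NBQX hippocampus, and 23.9% lower and 17.7% higher in HS hippocampus. Of the 20 that were lower in HS+NBQX and the 18 that were lower in HS, 16 were the same, which is 80.0% and 88.9% of each list, and 5 of the 7 higher ones, 71.4% of each list, were the same. Among probe sets with the higher level, the shared ones were 75.8% of the lower list of HS+NBQX and 70.7% of that of HS, and 73.5% and 66.9% of the higher lists. Without the swapped libraries of the 1 litter 15 were lower in HS+NBQX and 10 in HS, and with a common median 13 were lower in HS+NBQX. Each of these comparisons has its own libraries, drawn from the same litters.

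In cortex the calls were balanced. In HS+NBQX cortex 7 of the 50 were lower and 8 higher at 168 h than at 1 h, against 14.0% and 12.3% of all probe sets, and in HS cortex 9 were lower and 9 higher, against 14.9% and 14.5%. Among those with a noHS hippocampal mean of at least 7, 20.2% were lower and 22.0% higher in HS+NBQX cortex, and 21.0% lower and 26.3% higher in HS cortex. The median changes were 0.01 in HS+NBQX and 0.04 in HS, against -0.07 and -0.06 over all probe sets. That of the 50 in noHS cortex was -0.08. In HS+NBQX, 7 probe sets were lower and 2 higher at 168 h in both tissues, and 2 were lower in hippocampus and higher in cortex. In HS, 8 were lower and 5 higher in both tissues, and 1 was lower in hippocampus and higher in cortex. Among probe sets with the higher level, 10.7% were lower and 9.71% higher in both tissues in HS+NBQX, 11.1% and 11.4% in HS, and 0.569% in HS+NBQX and 0.921% in HS were lower in hippocampus and higher in cortex.

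Among the members that rose in hippocampus, 1388539_AT read 8.01, 7.99, 7.86, 8.18 and 7.88 at 168 h in HS, against 7.55, 7.22, 7.43, 6.78 and 7.63 at 1 h. All 5 later libraries were above the 5 earlier ones, and the rise was 0.66 ± 0.14 (SE, adjusted p = 8.39e-04, limma). 1371788_AT read 8.11, 7.95, 8.04, 8.24 and 7.65 at 168 h in HS hippocampus, against 7.54, 7.30, 7.52, 7.29 and 7.57 at 1 h, which was a rise of 0.56 ± 0.13 (SE, adjusted p = 0.00257, limma) without overlap. In HS+NBQX hippocampus the 2 largest rises were 0.56 ± 0.13 for 1383923_AT (SE, adjusted p = 0.00233, limma) and 0.50 ± 0.18 for 1388539_AT (SE, adjusted p = 0.0458, limma), the second of which was lost in 10 of 23 fits that left out 1 library. 1388539_AT rose in HS cortex too, by 0.79 ± 0.25 (SE, adjusted p = 0.0156, limma), a call that was lost without the libraries on the other plate (0.67, adjusted p = 0.160, limma) and without replicate 2 of 1 h (adjusted p = 0.0586) or replicate 4 of 168 h (adjusted p = 0.0546).

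Among the members that fell in hippocampus, 1387531_AT read 7.48, 7.12, 7.53 and 7.47 at 168 h in HS+NBQX, against 7.86, 8.59, 8.39 and 7.89 at 1 h. The 2 times did not overlap, and it fell by 0.78 ± 0.15 (SE, adjusted p = 2.45e-04, limma). In noHS hippocampus, held to a limit of 0.8 by the rule, 1387531_AT fell by 0.77. 1381487_AT read 6.92, 6.58, 6.87 and 6.14 at 168 h in HS+NBQX hippocampus, against 7.36, 7.57, 7.25 and 7.41 at 1 h, and fell by 0.77 ± 0.14 (SE, adjusted p = 1.43e-04, limma) without overlap.

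In a further pair of members the swapped libraries of the 1 litter stood apart from the others at 168 h. 1387288_AT read 7.91, 7.92, 8.70, 8.76 and 8.51 in HS hippocampus at 168 h, the last 3 being that litter's, against 8.89, 9.02, 9.37, 8.84 and 8.80 at 1 h. In HS cortex it read 6.97, 6.69, 5.26, 5.67 and 5.91 at 168 h, again with that litter last, against 6.92, 7.09, 7.21, 7.01 and 6.78 at 1 h. The swapped libraries were thus the higher ones in hippocampus and the lower ones in cortex. Put by plate, the libraries on the plate that otherwise held cortex were the higher ones in both tissues. Plate and litter cannot be told apart. 1387288_AT fell by 0.62 ± 0.15 in HS hippocampus (SE, adjusted p = 0.00239, limma) and by 0.90 ± 0.21 in HS cortex (SE, adjusted p = 0.00174, limma), and without that litter the change was larger in hippocampus, -1.07 (adjusted p = 2.15e-05, limma), and smaller in cortex, -0.18 (adjusted p = 0.490, limma).

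For 1377659_AT the HS hippocampus at 168 h read 7.27, 7.65, 6.29, 6.41 and 6.48, with the same litter last, against 7.21, 7.63, 7.44, 7.45 and 7.48 at 1 h. It fell by 0.62 ± 0.21 (SE, adjusted p = 0.0284, limma) with all libraries and changed by 0.02 without that litter (adjusted p = 0.972, limma). In HS hippocampus the fall in 1377659_AT rested on these 3 libraries. It was also lost there in 6 of 23 fits that left out 1 library, with the highest adjusted p, 0.104, without replicate 3 of 168 h. With all libraries 1377659_AT was also called lower in HS cortex (-0.68, adjusted p = 0.00563, limma). The same held in HS+NBQX hippocampus (-0.66, adjusted p = 0.0398, limma) and in HS+NBQX cortex (-0.53, adjusted p = 0.0172, limma). In HS+NBQX cortex, 1382626_AT fell by 0.89 ± 0.10 (SE, adjusted p = 2.19e-07, limma) and 1387288_AT by 0.84 ± 0.22 (SE, adjusted p = 0.00579, limma), the second of which was lost without that litter (adjusted p = 0.0870, limma). 1382626_AT fell in HS cortex as well, by 0.82 ± 0.10 (SE, adjusted p = 5.86e-07, limma). In noHS cortex, held to a limit of 0.8 by the rule, 1382626_AT fell by 0.73.

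The hypoxic session itself went with small differences in both directions. These comparisons use the noHS libraries that also chose the probe sets, and are not independent of the rule. In hippocampus 10 of the 50 were higher in HS than in noHS and 8 lower (limma, adjusted p under 0.05), against 11.6% and 9.91% of all probe sets and 15.3% and 20.0% of those with a noHS hippocampal mean of at least 7. The differences ran from -0.40 to 0.43 with a median of -0.01, and the median over all probe sets was -0.01. With every array shifted to a common median, 8 were higher and 11 lower, against 2377 and 3549 of all 24249 probe sets. In cortex 10 were higher and 9 lower, against 13.1% and 16.1% of all probe sets and 17.4% and 30.6% of those with the higher level. Here the differences ran from -0.48 to 0.64 with a median of -0.05, against -0.02 over all probe sets. With 6 higher and 3 lower in both tissues, the shared ones were 60.0% of the higher probe sets of each tissue, 37.5% of the lower ones of hippocampus and 33.3% of the lower ones of cortex. Among probe sets with the higher level these shares were 74.6% and 65.7% of the higher ones of hippocampus and cortex, and 68.6% and 44.8% of the lower ones.

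Because each plate column held 1 treatment, the column was also fitted as a random block. Then 6 of the 50 were higher and 2 lower in hippocampus, and 4 were higher and 3 lower in cortex. Over all 24249 probe sets, 1815 were then higher and 958 lower in hippocampus, against 2818 and 2402 without the block. In cortex 1862 were then higher and 1664 lower, against 3169 and 3893, so the counts fell over the whole array too. The array's 27 control probe sets for bacterial and phage transcripts were higher in HS than in noHS cortex by a median of 0.34, with 23 of 27 called higher, while in hippocampus their median difference was 0.02, with 2 of 27 called. Their part in the cortical counts was not tested.

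**Figure D4:**
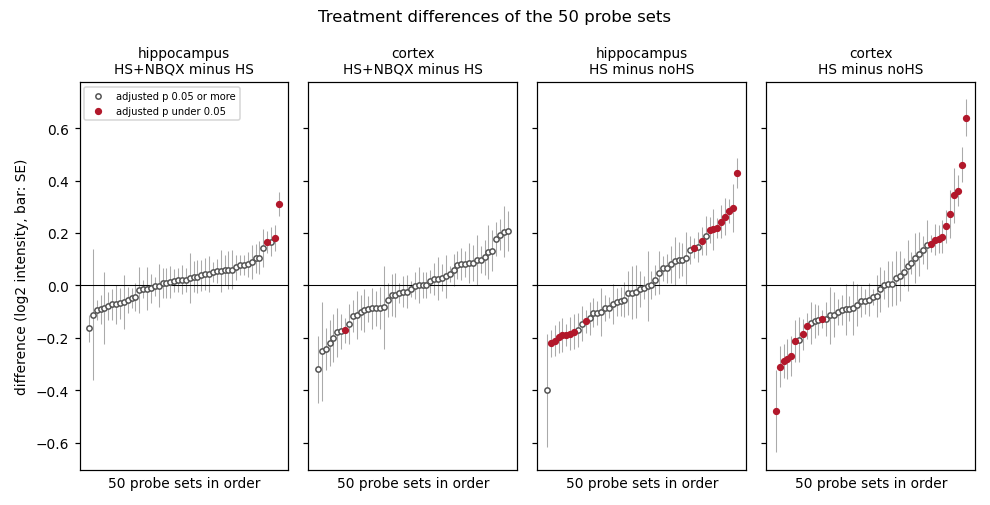
Differences (log2, with the SE of the fit) of the 50 probe sets for HS+NBQX minus HS and for HS minus noHS in each tissue, each panel in its own order, with filled points at an adjusted p under 0.05. For HS+NBQX minus HS 3 points are filled in hippocampus and 1 in cortex, and for HS minus noHS 18 are filled in hippocampus and 19 in cortex.

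The member with the largest difference in both tissues was 1397226_AT. In hippocampus its lowest, median and highest values were 9.09, 9.42 and 10.04 in HS, against 8.54, 9.02 and 9.76 in noHS. Cortex had 8.15, 8.37 and 9.08 in HS, against 7.37, 7.78 and 8.82 in noHS. The groups overlapped in both tissues when times were pooled, but at each of the 5 times the HS mean was the higher one, by 0.40 to 0.48 in hippocampus and by 0.54 to 0.71 in cortex. The fitted difference of 1397226_AT was 0.43 ± 0.06 in hippocampus (SE, adjusted p = 1.91e-07, limma) and 0.64 ± 0.07 in cortex (SE, adjusted p = 6.57e-10, limma). It was called in all 9 alternatives in each tissue, the plate column block included, with adjusted p of at most 1.91e-05 in hippocampus and 2.27e-06 in cortex.

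**Figure D5:**
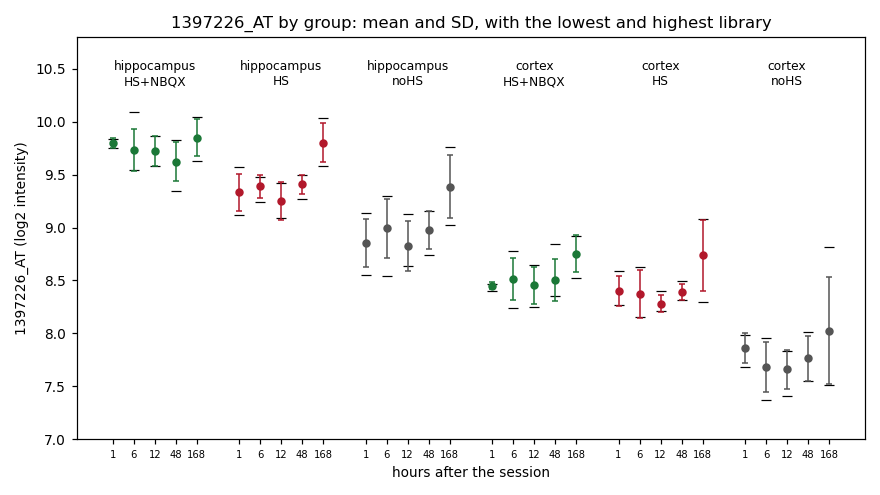
Log2 intensity of 1397226_AT in each group by hours after the session, as the mean with its SD and dashes at the lowest and highest library. In hippocampus HS+NBQX lies above HS and HS above noHS at all 5 times, and in cortex both hypoxic groups lie above noHS at all 5 times.

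Most of the other members described here were called in 1 tissue and not in the other, a difference that was not tested between tissues. 1387288_AT in hippocampus had a lowest, median and highest value of 7.91, 8.51 and 9.37 in HS, against 7.02, 8.33 and 8.85 in noHS, and was higher by 0.30 ± 0.09 (SE, adjusted p = 0.0166, limma), with a difference of 0.16 in cortex (adjusted p = 0.213, limma). The groups overlapped widely, and with the plate column as a block the difference was as large but not called (0.30, adjusted p = 0.0721, limma). 1383708_AT in cortex had 6.51, 7.06 and 7.46 in HS, against 6.04, 6.58 and 6.93 in noHS. 17 of its 23 HS libraries were above all 25 noHS libraries, and it was higher by 0.46 ± 0.07 (SE, adjusted p = 4.49e-07, limma), called in all 9 alternatives. With its cortical level higher after hypoxia, the tissue difference of 1383708_AT was 0.75 in HS+NBQX and 0.74 in HS, the lowest of the 50, against 1.07 in noHS.

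The 2 falls named in hippocampus were also called in cortex. 1395467_AT in hippocampus had 9.91, 10.37 and 10.72 in HS, against 9.98, 10.56 and 10.99 in noHS, and was lower at all 5 times, by 0.13 to 0.32. Its difference was -0.22 ± 0.05 (SE, adjusted p = 0.00119, limma) and held in all 9 alternatives, and in cortex it was -0.13 (adjusted p = 0.00279, limma). 1383923_AT in hippocampus had 6.42, 6.92 and 7.24 in HS, against 6.66, 7.19 and 7.68 in noHS. The difference of 1383923_AT was -0.21 ± 0.06 (SE, adjusted p = 0.00666, limma), with an adjusted p of 0.0566 under the plate column block, and in cortex it was -0.28 (adjusted p = 0.00373, limma).

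In cortex the 2 largest falls were of unlike reliability. 1379363_AT had 4.71, 6.71 and 7.54 in HS cortex, against 4.77, 6.97 and 7.96 in noHS cortex, with a difference of -0.48 ± 0.16 (SE, adjusted p = 0.0172, limma) that was not called under the plate column block (-0.52, adjusted p = 0.117, limma), and its difference in hippocampus was -0.40 (adjusted p = 0.198, limma). 1394135_AT had 6.78, 7.60 and 7.97 in HS cortex, against 6.78, 7.82 and 8.35 in noHS cortex. The HS mean of 1394135_AT was lower at all 5 times, and the difference was -0.31 ± 0.08 (SE, adjusted p = 0.00175, limma) and was called in all 9 alternatives.

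Few of the 50 differed between HS+NBQX and HS. These differences are means over the 5 times, which pool pups killed early in the injection course with pups killed later. In hippocampus 3 were higher in HS+NBQX than in HS and 0 were lower (limma, adjusted p under 0.05), against 2.65% and 1.57% of all probe sets and 4.02% and 3.47% of those with a noHS hippocampal mean of at least 7, with a median of 0.02 and a range of -0.16 to 0.31. At an unadjusted p under 0.05, 5 were higher and 2 lower, against 9.24% and 6.87% of all probe sets. With the arrays shifted to a common median 2 were higher and 1 lower, against 467 and 604 of all 24249 probe sets. With the plate column as a block 1 was higher and 0 were lower, against 142 and 61 of all probe sets. In cortex 0 were higher and 1 was lower, against 0.466% and 2.21% of all probe sets and 0.693% and 4.87% of those with the higher level, with a median of -0.01 and a range of -0.32 to 0.21. At an unadjusted p under 0.05, 4 were higher and 6 lower in cortex, against 4.46% and 13.1% of all probe sets. Quantile normalization or a common median gave 1 higher and 0 lower after adjustment, and 9 higher and 5 lower without it. Over all 24249 probe sets, quantile normalization gave 254 higher and 251 lower after adjustment, and 2008 and 2045 without it. A common median gave 204 and 137 after adjustment, and 2024 and 1710 without it. The methods' ANOVA, run on the same values at an adjusted p of 0.05, also gave 0 lower in hippocampus and 0 higher in cortex. The HS libraries enter both this comparison and that of HS with noHS.

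1397226_AT was again the largest. In hippocampus its lowest, median and highest values were 9.34, 9.75 and 10.09 in HS+NBQX, against 9.09, 9.42 and 10.04 in HS. The HS+NBQX mean was higher at all 5 times, by 0.05 to 0.47, and the difference was 0.31 ± 0.05 (SE, adjusted p = 1.79e-05, limma), called in all 9 alternatives. In cortex 1397226_AT had 8.24, 8.48 and 8.92 in HS+NBQX, against 8.15, 8.37 and 9.08 in HS, with differences of 0.02 to 0.17 at the 5 times, and was not called.

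The other calls were weaker. 1369067_AT in hippocampus had 8.86, 9.77 and 10.14 in HS+NBQX, against 9.04, 9.55 and 9.94 in HS. Its difference of 0.18 ± 0.05 (SE, adjusted p = 0.0258, limma) was not called with a common median (0.16, adjusted p = 0.0754, limma), with the plate column as a block (0.18, adjusted p = 0.259, limma), or without replicate 2 of HS at 12 h (adjusted p = 0.0537) or replicate 2 of HS+NBQX at 1 h (adjusted p = 0.0511). In cortex 1384863_AT had 6.74, 6.94 and 7.16 in HS+NBQX, against 6.79, 7.09 and 7.45 in HS, and a difference of -0.17 ± 0.05 (SE, adjusted p = 0.0376, limma). That call was lost in 3 of 9 alternatives, with adjusted p of 0.0242 to 0.855 over all 9, and in 18 of 47 fits that left out 1 library, where the highest adjusted p was 0.0714, without replicate 1 of HS at 12 h.

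The 50 probe sets varied together only loosely. The spread between libraries of 1 group, as a pooled SD, was 0.12 to 0.92 with a median of 0.21 in hippocampus and 0.10 to 0.69 with a median of 0.24 in cortex, against medians of 0.29 and 0.28 over all probe sets. Over the 1225 pairs of members, the correlation of their deviations from the group means had a median of 0.13 in the 70 hippocampal libraries and of 0.04 in the 72 cortical libraries, where all members share each library's scaling. The deviations of the 2 tissues of 1 pup had a median correlation of -0.08 over the 50 in 68 pups, against 0.00 over all probe sets.

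1379363_AT stood apart from the others in this respect. It had the largest spread in both tissues, and its deviations correlated between the tissues of a pup at 0.66, the highest of the 50. It lay more than 1 log2 unit below its group mean in 5 hippocampal and 5 cortical libraries, and 4 pups were among both. In HS+NBQX, hippocampus exceeded cortex for this probe set in 20 of 22 pups, the fewest of any member.

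Set beside the 33 probe sets that met the same level and difference in noHS but changed with time, the 50 did not differ in whether the enrichment was found after hypoxia, since all 33 were also called higher in hippocampus in HS+NBQX and in HS, with medians of 1.28 and 1.19. Of the 33, 10 had a smaller tissue difference at 168 h than at 1 h in HS+NBQX and 9 in HS, against 877 and 1593 of all 24249 probe sets. For 69 probe sets chosen by the mirrored rule, stronger in cortex and stable, all 69 were called lower in hippocampus in both treatments, with medians of -1.15 in HS+NBQX and -1.11 in HS. Of all 24249 probe sets, 6321 were called lower in hippocampus in HS+NBQX and 6633 in HS. Between 168 h and 1 h the hippocampus minus cortex difference of the 69 had a median change of 0.15 in HS+NBQX and 0.19 in HS, towards a smaller distance between the tissues as in the 50. No test was made between the sets.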

How the data were processed

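The samples were hippocampus and cortex of P10 rat pups (HS+NBQX, HS, noHS) at 5 times. The deposited values are linear microarray intensities, 1 per probe set and library. The authors obtained them with MAS5, whose version the sources used here do not state, and then scaled every array so that the upper quartile of its present calls was the same. Groups, litters, pups and replicate numbers came from the sample labels, and plate positions from the study's supplementary design description.

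Intensities at or below the smallest positive value, 0.0526 (97 values at or below 0), were raised to it before log2. Linear models in limma 3.58.1 (R 4.3.3), moderated by eBayes with a trend on mean level, were fitted over all 24249 probe sets, with 1 mean per group and Benjamini-Hochberg adjustment at 0.05. Treatment and tissue differences are means over the 5 times. Arrays have no read depth, so their number limits the precision. The fits were tested on data simulated with independent normal errors, without shared effects of pup, litter or plate. Of 100 planted changes per comparison, 14 to 75 were recovered at a size of 0.5 and 47 to 91 at a size of 1. Fewest were recovered for the change of the tissue difference between 168 h and 1 h in HS+NBQX. False calls numbered 0 to 12. Python 3.11.15 did the other steps.

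The members, comparisons and lists were chosen with earlier results of these data known. Named probe sets are the 2 with the largest differences among those called in each direction of a comparison, and for the tissue differences the 2 with the largest mean over HS+NBQX and HS. Marker gene lists had been planned and could not be applied, because probe sets are not paired with genes here. 1379363_AT was also described for its spread after its values were seen. Alternatives covered array scaling, a pseudocount of 32, a filter at the 40th percentile of mean level, replicate, animal, litter, plate and plate column terms, the ANOVA and t-test of the methods, and leaving out libraries.

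Replicate numbers pair the tissues: 23 of 23 same-numbered pairs in HS and 21 of 22 in HS+NBQX came from the same pup, and their deviations correlated at a median of 0.02 and 0.01. Between treatments or times, same-numbered libraries came from different pups.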

Additional observations from a re-analysis of the deposited data

Results flagged for a closer look

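The median of the 50 probe sets in each library, 1397226_AT and 1391383_AT were checked for a single library far from the others of its group, in 30 groups each. Chance alone gives such a library in about 1 in 20 groups, and 7 were found among the 90 checked. For the median of the 50, replicate 2 of noHS cortex at 6 h read 6.91, with the others at 7.11 to 7.19, and replicate 1 of noHS hippocampus at 6 h read 8.25, with the others at 8.49 to 8.54. For 1397226_AT, replicate 2 of HS+NBQX cortex at 1 h read 8.41, with the others at 8.46 to 8.47, and replicate 3 of HS+NBQX cortex at 48 h read 8.85, with the others at 8.36 to 8.49. For 1391383_AT, replicate 1 of HS cortex at 6 h read 7.23, with the others at 7.75 to 7.80. For the same probe set, replicate 2 of HS+NBQX cortex at 12 h read 7.85, with the others at 7.48 to 7.56, and replicate 1 of noHS cortex at 48 h read 8.37, with the others at 7.89 to 8.02.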

How the results depend on the processing

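Of 208 counts recomputed under other settings, 165 stayed within 1.5 times the count given. The tissue differences in HS+NBQX and HS, and their interaction, stayed so in every alternative and when any library was left out. Under a random block for plate column, 6 members were higher and 2 lower in HS than in noHS hippocampus, 4 higher and 3 lower in cortex, 1 higher in HS+NBQX than in HS hippocampus, and 0 lower in cortex. Among all 24249 probe sets the block gave 1815, 958, 1862, 1664, 142 and 1 in the same order. The methods' ANOVA at a false discovery rate of 0.25 gave 14 lower in HS than in noHS hippocampus and 17 in cortex, 2 lower in HS+NBQX than in HS hippocampus, and 4 higher and 5 lower in cortex. Over all 24249 probe sets these counts were 4977, 6382, 1347, 878 and 2739. For HS+NBQX against HS, a common median, the filter or the litter as a factor gave 1 lower in hippocampus. In cortex these 3 settings and quantile normalization gave 1 higher, the filter and the litter gave 2 lower, and the others 0 lower. Leaving out 1 library gave 0 to 1 lower in hippocampus, 0 to 1 higher and 0 to 1 lower in cortex.

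For 168 h against 1 h, the methods' t-test gave 3 higher and 9 lower in HS hippocampus, 5 lower in HS cortex, 2 higher and 5 lower in HS+NBQX hippocampus and 4 lower in HS+NBQX cortex. It did not call 1383923_AT, 1388539_AT, 1387531_AT or 1381487_AT in HS+NBQX hippocampus, with adjusted p of 0.0503 to 0.141, 1387288_AT (0.0847) and 1377659_AT (0.171) in HS hippocampus, 1388539_AT (0.0600) and 1387288_AT (0.0915) in HS cortex, or 1387288_AT (0.0937) in HS+NBQX cortex. A common median gave 13 lower in HS+NBQX hippocampus. Without the libraries on the other tissue's plate, which also leaves fewer libraries, 10 were lower in HS hippocampus and 4 in HS+NBQX cortex, and 1377659_AT changed by 0.0172 in HS hippocampus, a turned sign. Leaving out 1 library gave 3 to 7 higher in HS+NBQX hippocampus, the lowest without replicate 3 at 1 h, and 4 without replicate 1 or 3 at 168 h.

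For the change of the tissue difference in HS, 0 were larger with a common median, the replicate block or the animal block, and 2 with quantile normalization, the filter, the plate as a factor or the off-plate libraries left out. The last 2 gave 2 and 3 smaller. In HS+NBQX the plate as a factor gave 1 larger and 2 smaller, and leaving out those libraries 2 smaller. Leaving out 1 library gave 0 to 2 larger and 5 to 12 smaller in HS, and 1 to 3 larger and 5 to 11 smaller in HS+NBQX, the 1 larger without replicate 4 of the cortex at 1 h. The replicate block changed no other count by over 1.5 times. The causes of these shifts were not tested.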
